A study of Mus musculus with 5 samples.

Results

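The 34 genes described here copy DNA in S phase or switch that copying on: origin licensing factors, the replicative helicase, polymerases and primase, the sliding clamp and its loader, strand-binding and joining proteins, the cyclins E and E2F factors of the G1/S transition, and a chromatin factor and a histone mRNA-binding protein that serve newly made DNA. They were taken by gene symbol from probe sets annotated to exactly 1 gene, and all 34 were found among the 18193 genes so annotated on the array. The cells studied were germinal centre B cells, which divide and mutate their antibody genes in the follicles of the spleen after immunization, from mice with the genotype relfl/flCg1-Cre (REL, 2 arrays), in which loxP-flanked alleles of Rel, the gene of the NF-kB subunit c-Rel, are exposed to Cre. The series title calls these cells eGFP+. The littermate controls carried Cg1-Cre without floxed Rel alleles (WT, 3 arrays) and their cells are called eGFP-. All animals were C57BL/6 mice, 12 weeks old, 7 days after sheep red blood cells were given, and the cells were sorted from splenic mononuclear cells by flow cytometry. Cg1-Cre is known to be active in most germinal centre B cells, and both groups carry it. Whether the sorted cells of both groups had seen the same Cre activity is not given. The labels do not say which part of Rel is removed, what drives eGFP, or whether each array came from its own animal, so p-values here reflect only how much these arrays vary, which could be technical.

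A cell licenses its replication origins in G1, when the origin recognition complex, Cdc6 and Cdt1 place the hexamer of Mcm proteins on DNA. On entry into S phase Cdc45 and the GINS complex join the hexamer to form the active helicase, polymerase alpha with primase starts each strand, and polymerases epsilon and delta extend it on the PCNA clamp. Many of these genes are known targets of E2F transcription factors, and germinal centre B cells in the dark zone are among the fastest dividing cells of the body.

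Expression was measured on single-colour Affymetrix arrays from amplified RNA, and the deposited values are MAS5 signal intensities with the same 2% trimmed mean of 500 on every array. The median signal was 48.1 and 30.1 on REL replicates 1 and 2, and 40.7, 41.1 and 54.6 on WT replicates 1 to 3. Differences are given as REL minus WT on the log2(signal + 16) scale from a limma fit over all 12082 genes tested, with adjusted p-values over all of them. Rel itself had signals of 18.6 and 85.2 in REL and 492, 134 and 206 in WT, a difference of −2.12 (SE 0.73, limma adjusted p = 0.46). The B cell and germinal centre markers Bcl6, Fas, Ms4a1, Cd79a, Mybl1 and S1pr2 were above the level of dim probe sets (a signal of 23.1) on every array. The summed signal of the 15 B cell and germinal centre markers on the array was 99983 to 111390 in REL and 95993 to 110170 in WT. General B cell markers such as Ms4a1 and Cd79a are among them, so this sum does not measure germinal centre cells alone. Of the 15, Bach2 had both REL arrays above every WT array (9505 and 10499 against 8103, 5143 and 4612). Rgs13 had both below (4514 and 3321 against 4960, 6058 and 6022). Each is 6.67% of the 15, where 9.53% and 14.3% of all genes did. The summed signal of 21 macrophage, monocyte and neutrophil markers was 7359 to 9110 in REL, against 1464 to 3619 in WT, with both REL arrays above every WT array for 13 of the 21, both below for 1, and no marker at 0. The summed signal of 10 T cell markers was 5376 to 6560 in REL and 4962 to 5470 in WT. Most of this sum came from 1 gene, Cd2, at 5725 and 5088 in REL and 4396, 5233 and 4743 in WT. Of the 10 T cell markers 7 did not pass the filter on dim probe sets, so the sum says little about T cells. The part of the macrophage markers in the differences below was not tested, and in such bulk samples fewer cells of a type and less RNA per cell cannot be told apart.

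None of the 34 replication and S phase genes passed the threshold of an adjusted p under 0.05, which 1 of all genes tested passed (0.00828%), and the smallest adjusted p among them was 0.341, for Rpa2. At an unadjusted p under 0.05 there were 3 members lower in REL (Rpa2, Prim1 and Mcm6), where the background over all genes was 4.99%, and 1 higher (Gins3), where it was 3.24%. That count of 4 was 1 without WT replicate 3, 1 with median centring, 1 with no mean-variance trend, 2 with quantile normalization and 2 with the replicate number as a block. The block is not a separate check, since WT replicate 3 has no partner in it and does not enter its differences. WT replicate 3 also had the highest ratio of 3′ to 5′ signal of the actin control, a sign of RNA quality, at 2.45, where the REL arrays had 1.64 and 1.73 and the other WT arrays 1.58 and 1.73. For the Gapdh control that ratio was 1.42 and 1.57 in REL and 1.43, 1.51 and 1.71 in WT. The part of RNA quality in these differences was not tested. A difference below 0 was found for 25 of the 34 members, or 73.5%, against 56.8% of all genes. The median difference of the members was −0.18, that of all genes −0.07, and with the arrays centred on their medians these were −0.0063 and 0.10, since centring adds 0.17 to every gene; 17 of 34 members were then below 0, as were 18 of 34 when REL replicate 1 was left out. All 34 passed the filter on dim probe sets. The members were measured more evenly than most genes, with a median SD between arrays of a group of 0.21 log2 units against 0.42 over all genes. This was not particular to them, as that median was 0.19 for mitosis, 0.25 for nucleotide synthesis and 0.30 for other replication genes. Of the 34 members 24 had a 95% interval that lay within 1 log2 unit of 0 on either side. The REL arrays were both under the lowest WT array for 7 members (Mcm5, Mcm6, Gins2, Prim1, Rfc5, Rpa2 and Lig1), where 14.3% of all genes did, and above for 2 (Mcm10 and Gins3), where 9.53% did. These are 20.6% and 5.88% of the members, shares too near the backgrounds to be read as results about them.

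**Figure D1:**
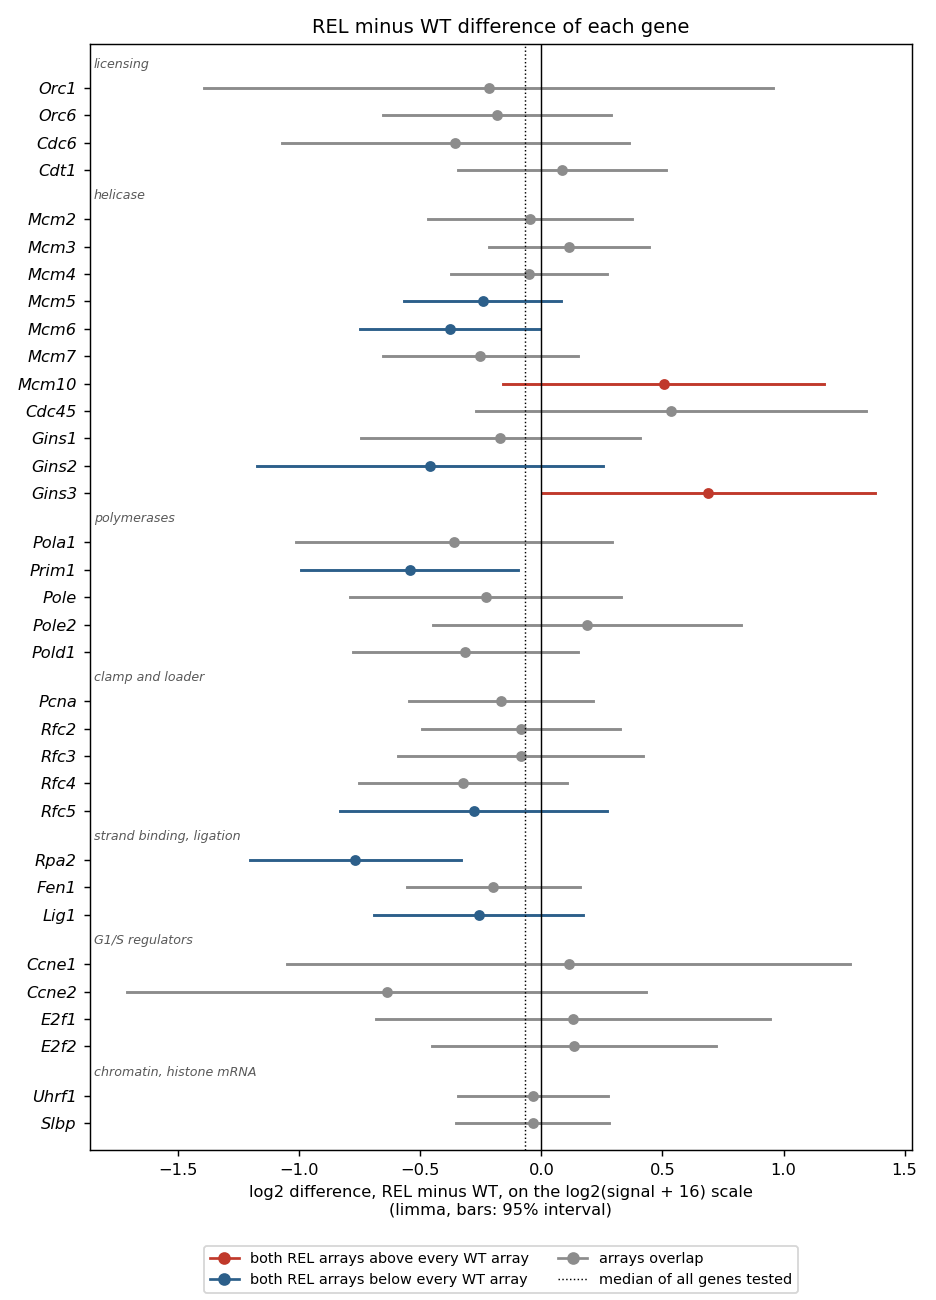
REL minus WT difference of each of the 34 genes on the log2(signal + 16) scale (x axis, log2 units), by role from licensing at the top. Points are limma estimates and bars 95% intervals, coloured by whether the 2 REL and 3 WT arrays overlap, and the dotted line is the median of all genes tested at −0.07. Most points lie a little left of 0, Rpa2 lies farthest left at −0.77 and Gins3 farthest right at 0.69.

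The 4 members at an unadjusted p under 0.05 are shown with the bases around their annotated starts, because promoters of replication genes are known for E2F and NF-Y sites. All 4 hold NF-Y matches, and Mcm6 and Gins3 hold E2F matches. Each stretch runs 5′ to 3′ on the gene's strand from 150 bases before to 30 bases after the start in RefSeq (GRCm38.p6), with capitals for E2F matches (TTTCCCGC, TTTCGCGC, TTTGGCGC or TTTGCCGC, either strand) and for NF-Y matches (CCAAT, either strand). They lie at chr4:132768210-132768389 on the plus strand for Rpa2, chr10:128015065-128015244 on the plus strand for Prim1, chr1:128359676-128359855 on the minus strand for Mcm6, and chr8:95633409-95633588 on the plus strand for Gins3.
Rpa2: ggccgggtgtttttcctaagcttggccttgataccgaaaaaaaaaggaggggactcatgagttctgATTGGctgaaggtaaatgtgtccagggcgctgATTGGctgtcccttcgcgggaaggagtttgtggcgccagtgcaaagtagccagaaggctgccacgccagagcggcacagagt
Prim1: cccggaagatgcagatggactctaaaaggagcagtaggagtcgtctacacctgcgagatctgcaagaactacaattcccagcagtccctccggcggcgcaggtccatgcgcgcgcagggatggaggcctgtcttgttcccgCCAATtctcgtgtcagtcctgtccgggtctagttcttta
Mcm6: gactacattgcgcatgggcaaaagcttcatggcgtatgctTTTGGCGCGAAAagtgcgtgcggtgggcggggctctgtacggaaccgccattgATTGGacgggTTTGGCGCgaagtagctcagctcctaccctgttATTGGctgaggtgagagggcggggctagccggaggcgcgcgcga
Gins3: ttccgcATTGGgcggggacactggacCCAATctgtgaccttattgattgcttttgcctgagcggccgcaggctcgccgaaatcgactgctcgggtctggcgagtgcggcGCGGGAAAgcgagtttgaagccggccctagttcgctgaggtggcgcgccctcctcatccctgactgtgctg

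All 4 licensing genes had overlapping REL and WT arrays in the probe sets that stand for them, and 3 were below 0. Orc1 and Orc6, subunits of the origin recognition complex, were at −0.22 and −0.18, Cdc6, the ATPase that loads the Mcm hexamer together with Cdt1, was at −0.36, and Cdt1 at 0.09. Cdc6 had signals of 1735 and 1587 in REL, against 1426, 3052 and 2210 in WT. The REL values lay inside the WT range, and the 95% interval of the difference ran from −1.07 to 0.36. Cdt1 was measured more tightly, with an interval from −0.34 to 0.52, and the other Cdt1 probe set past the filter gave 0.62, with both REL arrays above every WT array. Orc1 had the dimmest signals of all members, 165 and 233 in REL and 236, 235 and 222 in WT, and its interval, from −1.39 to 0.96, was among the widest.

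The 6 subunits of the Mcm hexamer spanned a narrow range, from −0.38 for Mcm6 to 0.11 for Mcm3, with a median of −0.15. Mcm6 had signals of 5843 and 4971 in REL, against 6457, 6625 and 8013 in WT, a difference of −0.38 (SE 0.17, limma adjusted p = 0.601). The REL arrays were both under the lowest WT array in its second bright probe set too, at 5838 and 5746 in REL against 6412, 6745 and 6570 in WT, where the difference was −0.18. Mcm5 had signals of 6238 and 6097 in REL and 6739, 7482 and 7720 in WT, a difference of −0.24 (SE 0.15). All 3 of its probe sets had both REL arrays below every WT array, and the dimmest of them gave −1.27. Mcm7 had signals of 5444 and 8071 in REL, against 7897, 8217 and 7598 in WT, and its difference was −0.25 with all arrays and 0.03 without REL replicate 1. Mcm2, Mcm3 and Mcm4 were at −0.05, 0.11 and −0.05, with the ends of their intervals between −0.47 and 0.44, and Mcm2 and Mcm4 turned to 0.12 each with median centring. A second bright Mcm4 probe set had both REL arrays above every WT array, 5962 and 7273 in REL against 5453, 5740 and 5773 in WT (0.22). The 5 Mcm3 probe sets ran from −0.0077 to 0.41, and the second Mcm2 probe set gave 0.08, all with overlapping arrays.

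The factors that turn the loaded hexamer into an active helicase did not lie on one side. Gins3 had signals of 2077 and 1823 in REL, against 866, 1455 and 1374 in WT, the highest difference of all members at 0.69 (SE 0.31, limma adjusted p = 0.606). A dimmer Gins3 probe set overlapped between the groups and gave 0.03. Of the other GINS subunits, Gins2 had signals of 804 and 896 in REL and 958, 1416 and 1191 in WT, a difference of −0.46 (SE 0.32). The second Gins2 probe set overlapped, with 921 and 1021 in REL against 965, 1047 and 1121 in WT, and gave −0.10. Gins1 was at −0.17, with 3326 and 1919 in REL on either side of the WT values of 3006, 2797 and 2736. Mcm10, which helps activate the helicase, had signals of 2327 and 1424 in REL and 1171, 1324 and 1348 in WT, a difference of 0.50 (SE 0.30). Its second probe set gave 0.79, with 1816 and 1404 in REL against 889, 844 and 1035 in WT. Cdc45, the partner of GINS in the active helicase, was at 0.53, where REL replicate 2 (1629) lay above every WT array (739, 799 and 995) and REL replicate 1 (914) did not, and its dimmer probe set gave −0.18.

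Primase and the polymerases had a median of −0.31 over 5 genes, with 4 of them below 0. That median was −0.14 with median centring, −0.13 without REL replicate 1 and −0.14 without WT replicate 3. Prim1, the catalytic subunit of primase, had signals of 3639 and 4305 in REL, against 5006, 5363 and 7194 in WT, a difference of −0.54 (SE 0.20, limma adjusted p = 0.494). Its REL signals averaged 67.8% of the WT mean. Its second probe set showed the same order, at 2971 and 3303 in REL against 3711, 4157 and 4902 in WT (−0.43). Pold1, the catalytic subunit of polymerase delta, was at −0.31 and Pole, that of polymerase epsilon, at −0.23, both with overlapping arrays. Pola1, the catalytic subunit of polymerase alpha, had signals of 1141 and 1949 in REL and 2161, 1764 and 1859 in WT, and its difference was −0.36 with all arrays and 0.02 without REL replicate 1. Pole2, an accessory subunit of polymerase epsilon, was the member of this group above 0, at 0.19. A dim Pole2 probe set had signals of 81.0 and 291 in REL, against 1.30, 1.35 and 32.3 in WT. It passed the filter on dim probe sets only through the REL arrays, so nothing is read from its difference.

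The clamp and its loader had 5 of 5 genes between −0.32 and −0.08, of which Pcna, Rfc2 and Rfc3 turned to 0.0032, 0.086 and 0.084 with median centring. Pcna, the sliding clamp, had signals of 8022 and 11349 in REL and 9437, 11346 and 11474 in WT, and its interval ran from −0.55 to 0.22. Rfc4, a clamp loader subunit, had signals of 3709 and 4312 in REL and 4295, 4956 and 5918 in WT, a difference of −0.32 (SE 0.19). Rfc5 had 1695 and 1643 in REL, against 1818, 2417 and 1904 in WT, with no overlap and a difference of −0.28 (SE 0.25). The other loader subunits measured here, Rfc2 and Rfc3, were at −0.08 and −0.09 and overlapped between the groups, but their other probe sets did not. Both further Rfc2 probe sets had the REL arrays below every WT array, with differences of −0.33 and −0.46. The second Rfc3 probe set had them above, at 1177 and 1541 in REL against 1054, 947 and 922 in WT (0.46).

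The proteins that bind and join the new strands held the lowest member. Rpa2, a subunit of the complex that coats single-stranded DNA, had signals of 2339 and 2547 in REL, against 4305, 3676 and 4577 in WT. The REL signals averaged 58.4% of the WT mean, and the highest REL array lay below the lowest WT array by more than the REL arrays differed from each other. The difference was −0.77 (SE 0.20, interval −1.21 to −0.33, limma adjusted p = 0.341), rank 103 by p among all 12082 genes. A dimmer Rpa2 probe set gave −0.70, with 642 and 433 in REL overlapping 1400, 553 and 833 in WT. Lig1, the ligase that seals Okazaki fragments, had signals of 2779 and 2978 in REL and 3150, 3738 and 3467 in WT, a difference of −0.26 (SE 0.19). Fen1, the flap endonuclease that trims those fragments, was at −0.20 in its brightest probe set and at −0.70 in the other, where REL signals of 1426 and 2248 lay below WT signals of 2408, 3072 and 3377.

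The regulators of S phase entry showed the largest scatter between arrays of a group, with a median SD of 0.53 log2 units. The cyclin gene Ccne2 had signals of 972 and 420 in REL and 902, 1629 and 691 in WT, a difference of −0.64 with an interval from −1.71 to 0.43. Ccne1 was at 0.11, with REL signals of 1386 and 492 against 499, 1221 and 731 in WT, and a second probe set gave −0.47. For both cyclins the REL arrays differed from each other by more than the group means did. The transcription factor genes E2f1 and E2f2 were at 0.13 and 0.14, with overlapping arrays, and none of their 5 probe sets was below 0. A second E2f2 probe set had both REL arrays above every WT array, 2064 and 2631 in REL against 1729, 1611 and 1791 in WT (0.44). Slbp, which binds the stem-loop of histone mRNAs and is needed for their processing, had signals of 8067 and 9045 in REL and 7960, 9340 and 9044 in WT, a difference of −0.04 (interval −0.35 to 0.28), and Uhrf1, which brings the maintenance DNA methyltransferase to newly copied DNA, was at −0.03 (interval −0.34 to 0.27). These 2 bright genes were at 0.13 each with median centring. Their second probe sets past the filter were above 0, at 0.16 for Slbp with overlapping arrays and 0.20 for Uhrf1. That of Uhrf1 had both REL arrays above every WT array, 815 and 825 in REL against 785, 720 and 643 in WT.

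**Figure D2:**
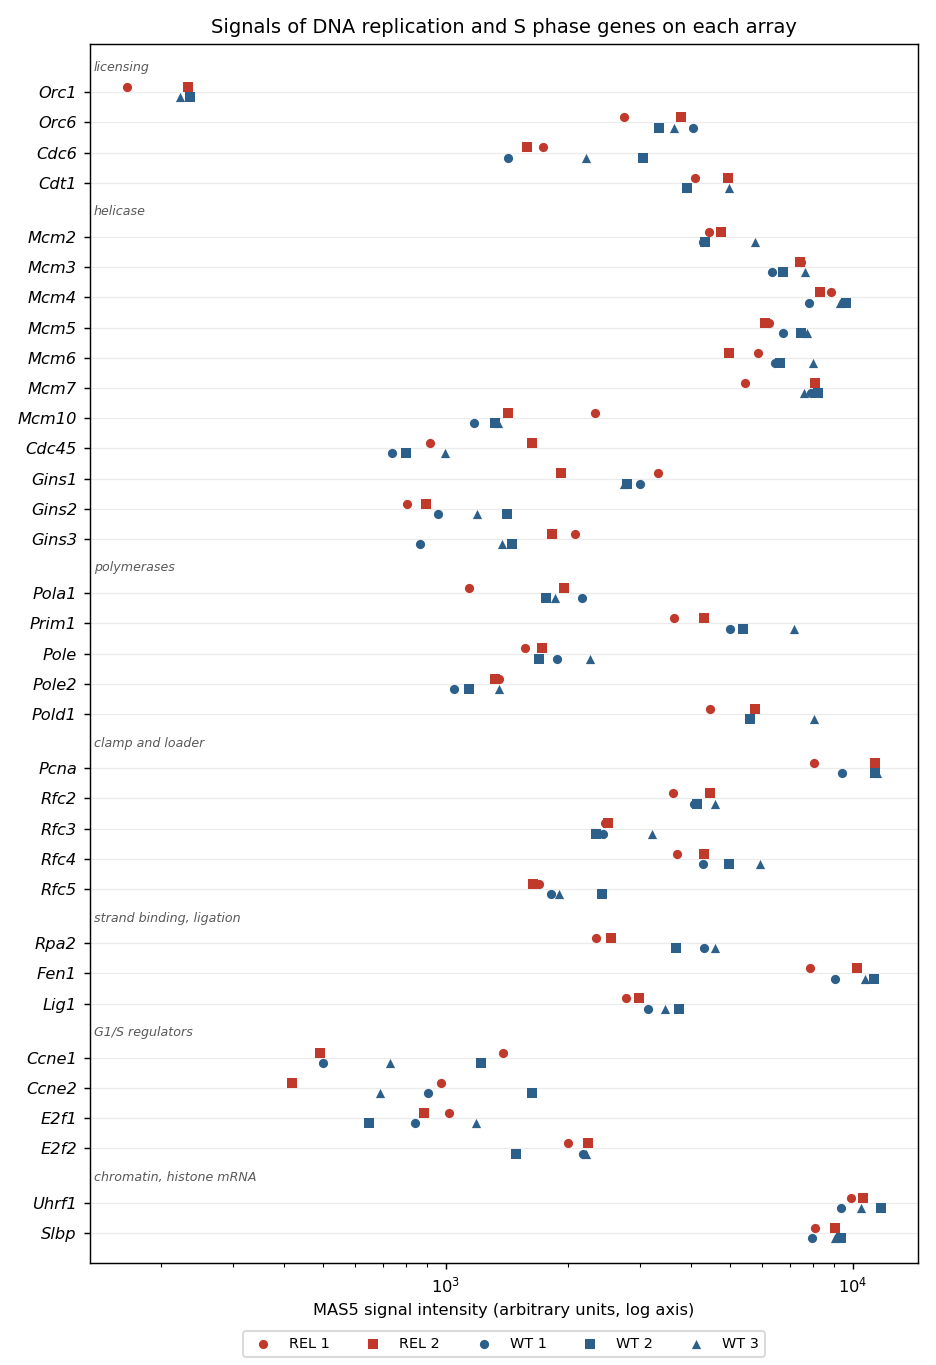
MAS5 signal of each of the 34 genes on every array (x axis, arbitrary units, log scale), grouped by role. Red symbols are REL replicates 1 and 2 and blue symbols WT replicates 1 to 3, drawn just below the REL symbols of the same gene. The REL symbols of Rpa2, Prim1, Mcm5 and Mcm6 stand to the left of all WT symbols, and those of Gins3 and Mcm10 to the right.

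The 2 REL arrays differed from each other across the members. REL replicate 1 lay below every WT array for 17 of 34 members, or 50%, where 31.2% of all genes did, and REL replicate 2 for 10, or 29.4%, where 34.7% of all genes did. The median deviation of the members from the WT mean was −0.23 on REL replicate 1 and −0.0026 on REL replicate 2, against −0.13, −0.02 and 0.09 on WT replicates 1 to 3, so that REL replicate 2 lay inside the WT range. For all genes these medians were −0.03 and −0.09 in REL and −0.05, 0.01 and 0.06 in WT. A lower median on REL replicate 1 was not particular to the members. On REL replicates 1 and 2 the medians were −0.14 and 0.06 for other replication genes and −0.23 and 0.06 for mitosis genes. They were −0.18 and 0.03 for the 15 B cell and germinal centre markers, but −0.10 and −0.09 for nucleotide synthesis genes. Without REL replicate 1 the members' median difference was −0.0026, with 18 of 34 below 0 and the median of all genes at −0.10, and without REL replicate 2 it was −0.23. The polymerase group was at −0.50 on REL replicate 1 and −0.13 on REL replicate 2, and the strand-binding and ligation group at −0.39 and −0.21, while the helicase group was at −0.0074 and −0.00086. Rpa2 was between −0.86 and −0.70 over the 5 fits that each left out 1 array, Prim1 between −0.67 and −0.39 and Mcm6 between −0.49 and −0.18.

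**Figure D3:**
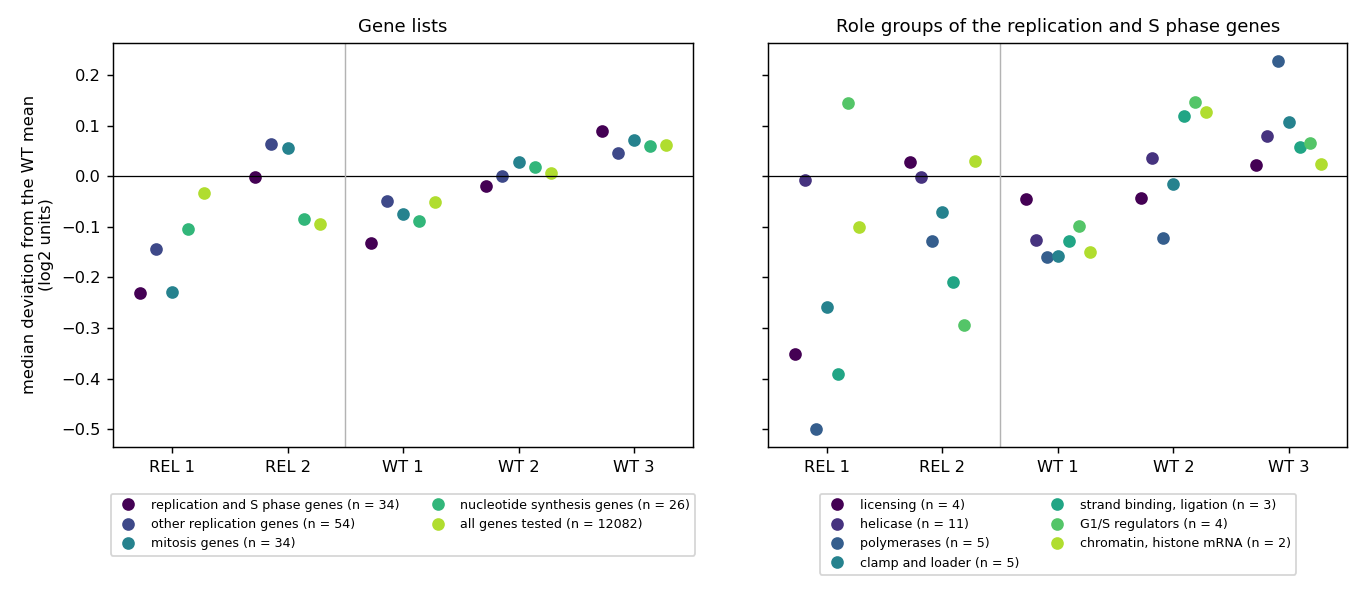
Median deviation of each gene list (left) and each role group (right) from the WT mean on every array (y axis, log2 units), with the number of genes in the legend. The replication and S phase genes stand at −0.23 on REL replicate 1 and at −0.0026 on REL replicate 2, where the WT arrays range from −0.13 to 0.09.

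Probe sets of the same gene were compared within each array. They read the same RNA, so a shared side of 0 is not separate evidence for a difference between the groups. The 34 genes had 73 probe sets, of which 69 were past the filter and 43 of those below 0. More than 1 probe set was past the filter for 26 genes, and in 17 of these all lay on the same side of 0. The matching shares over all genes are not given here, so nothing is read from these counts. Prim1, Mcm5, Mcm6, Mcm7, Rfc2, Rfc4, Pold1, Rpa2, Fen1, Gins1 and Gins2 were below 0 in every probe set, and Cdt1, Mcm10, Gins3, Pole2, E2f1 and E2f2 above it, Pole2 counting the dim probe set that passed only through REL. In a limma fit over all 22200 probe sets 0 were called, of the members or of all genes, and 6 of the 69 (8.70%) were at an unadjusted p under 0.05, as were 8.21% of all probe sets, a share too near that of the members to be read as a result about them. These were the ones of Rpa2, Prim1 and Mcm6 above, the second ones of Mcm10 and Fen1, and the dim one of Pole2, and without the last there were 5 of 68 (7.35%).

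**Figure D4:**
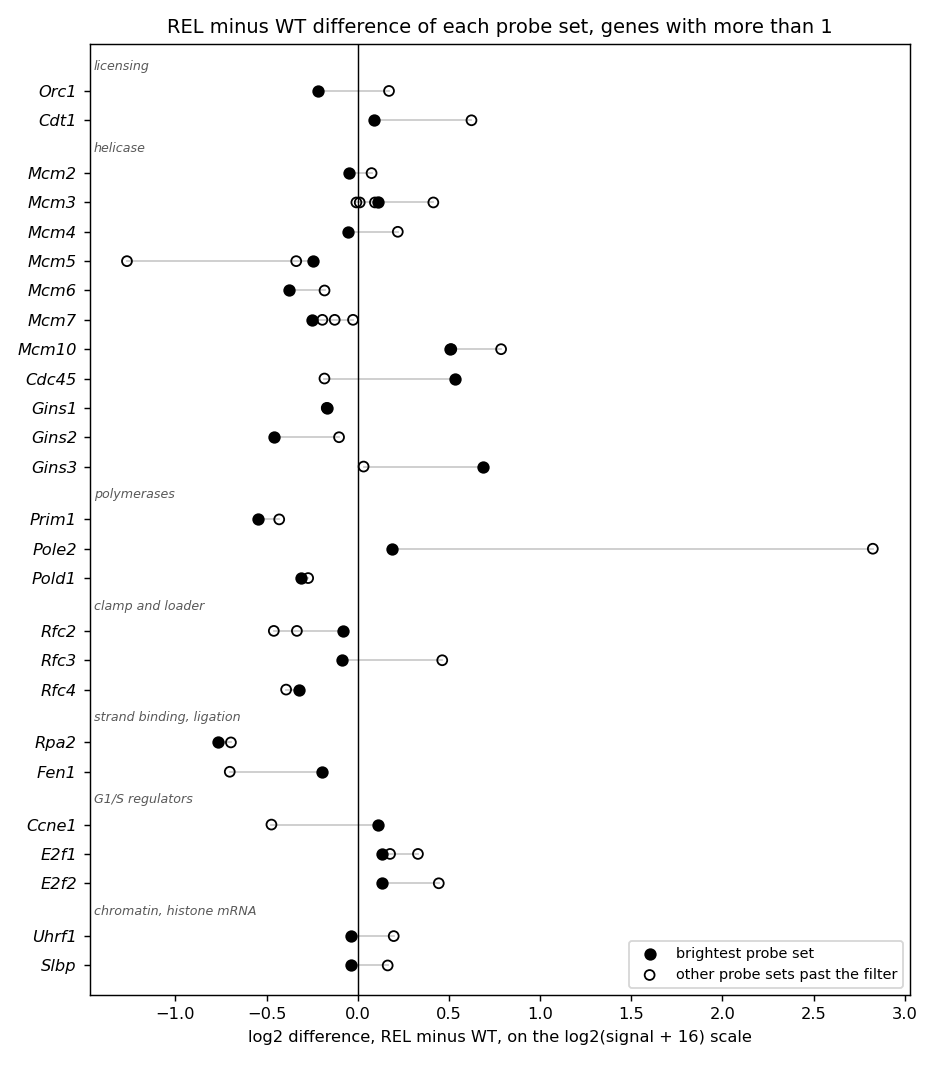
REL minus WT difference of every probe set past the filter for the 26 genes with more than 1 (x axis, log2 units on the log2(signal + 16) scale). Filled circles are the brightest probe set, which stands for the gene elsewhere, and open circles the others; the dimmest Mcm5 probe set stands far left at −1.27, and the open Pole2 circle far right is the probe set that passed the filter only through the REL arrays.

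Other genes of the same process were listed beside the members: 54 of 55 listed genes were on the array and all 54 were tested. Of these 33 were below 0, 0 were called by limma, none was at an unadjusted p under 0.05, and the median was −0.07, the same as over all genes. The smallest p belonged to Cdk2, the kinase that partners cyclins E and A, at −0.98 (SE 0.44), with signals of 327 and 707 in REL against 1280, 973 and 723 in WT. Chaf1b, a subunit of the factor that places histones on new DNA, was at −0.86 (SE 0.40), Prim2, the partner of Prim1 in primase, at −0.53 (SE 0.25), and Rpa1, the large partner of Rpa2, at −0.34 (SE 0.16). Prim2 had 1916 and 1373 in REL, against 2300, 2153 and 2645 in WT, with both REL arrays below every WT array as for Prim1. Rpa1, with 8239 and 9936 in REL against 9580, 12249 and 12683 in WT, overlapped. These 4, named for the smallest p, had limma adjusted p-values of 0.612 to 0.635. Of all 54, 7 (13.0%) had both REL arrays below every WT array and 3 (5.56%) above, where 14.3% and 9.53% of all genes did. Nothing is read from these shares or from the order of Prim2. The mitosis genes had a median of −0.10 over 34 genes with 23 below 0, and the nucleotide synthesis genes −0.06 over 26 with 18 below 0. On REL replicates 1 and 2 the mitosis genes stood at −0.23 and 0.06.

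The promoters were compared by the letters they hold. RefSeq promoters of 300 bases, 250 before to 50 after a start, were matched for 28 of the 34 genes, in 34 promoters. An E2F match on either strand was present in 15 of the 28 genes, or 53.6%, against 4.66% of the 9788 tested genes with a promoter. By promoter it was present in 15 of the 34 (44.1%), against 3.87% of the 12474 promoters of tested genes and 2.26% of all 32851 promoters. NF-Y matches were present in 18 of the 28 (64.3%) against 42.7% of tested genes. Among the other replication genes 16 of 44 (36.4%) held an E2F match and 24 (54.5%) an NF-Y match, and among the mitosis genes 3 of 29 (10.3%) and 23 (79.3%). A Rel-type match, GGGNNTTTC on either strand, was present in 1 of the 28 members, Mcm2, or 3.57%, against 5.02% of tested genes. Matches of different motifs overlapped in 1 of the 34 promoters and E2F matches overlapped each other in 2, those of Mcm6 and Mcm5. The 15 genes with an E2F match had a median difference of −0.22, with 10 below 0, and the 13 without one −0.17, with 9 below 0. Of the stretches printed above, Mcm6 holds 3 E2F matches and Gins3 1, though they differed in opposite directions, while Rpa2 and Prim1 hold NF-Y matches and no E2F match.

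**Figure D5:**
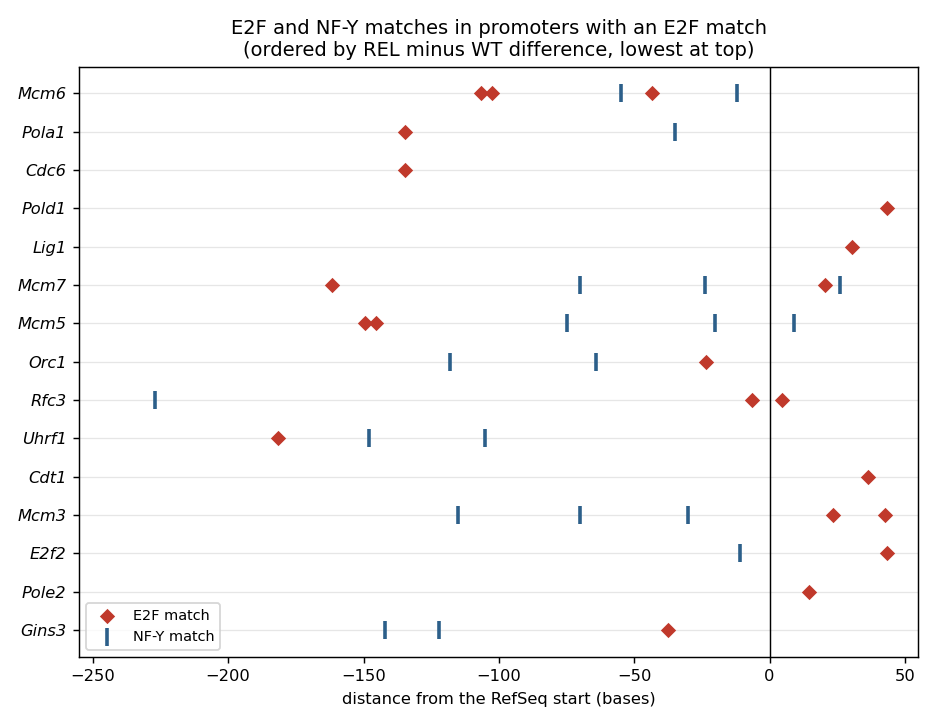
Positions of E2F matches (red diamonds) and NF-Y matches (blue bars) relative to the RefSeq start (x axis, bases) in the 15 promoters with an E2F match, ordered by the gene's REL minus WT difference from Mcm6 at the top (−0.38) to Gins3 at the bottom (0.69). E2F matches lie on both sides of the start, from 185 bases before it in Uhrf1 to 47 bases after it in E2f2 and Pold1, and the farthest NF-Y match begins 229 bases before it, in Rfc3.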

How the data were processed

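The authors deposited 1 table of MAS5 signal intensity values (linear, 45101 probe sets, 5 arrays); the submitters' processing notes name MAS5, with no version or scanner settings. Per the labels' protocols, cDNA was made and amplified from about 10 ng of RNA (NuGEN Ovation). Samples were grouped by title. Of the probe sets 34958 had 1 symbol in the platform annotation, and control probe sets were left out. Signals were taken as log2(signal + 16), which understates changes of dim genes, the lowest 40% of probe sets by mean were left out, and the brightest probe set stood for each gene, leaving 22200 probe sets and 12082 genes. Limma 3.58.1 in R 4.3.3 (eBayes with trend, group as the single term, 3 residual and 6.84 prior degrees of freedom, two-sided, Benjamini-Hochberg) gave differences and 95% intervals. The code was tested on simulated data. Precision is limited by the number of arrays, and an exact permutation test of 2 against 3 arrays cannot go below p = 0.2.

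The members and lists were chosen with earlier results of these data known. By rule all 34 members are named, with signals on every array for those whose arrays do not overlap and for the smallest p of each role, and of the other replication genes the 4 with the smallest p; further signals and probe sets were added after their values were seen. Alternatives were median centring, quantile normalization, pseudocounts of 1 and 64, a 60% filter or none, averaged probe sets, no trend, the replicate number as a block, and each array left out. Replicate numbers were not taken as a pairing of the samples. Python 3.11.15, pandas 2.3.3 and matplotlib 3.10.9 were used for tables and plots.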

Additional observations from a re-analysis of the deposited data

How the results depend on the processing

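No member was called under any of the 14 alternatives, and 18 of the 34 kept their direction in all of them. The members' median difference was −0.18, and −0.0063 with median centring; leaving out 1 array gave −0.23 to −0.0026, of which −0.0026 was without REL replicate 1. The count of all genes called was 1, and it was 0 with pseudocounts of 1 and 64, with no filter, with the lowest 60% left out, with the mean of the probe sets and with no trend, 2 with quantile normalization, 3 with median centring, and 0 to 8 when 1 array was left out. With the replicate number as a block 18 genes and 0 members were called, Mcm2 stood at 0.090 and Rfc3 at 0.057. For a given probe set the block gives the same difference as leaving out WT replicate 3, which has no partner. The deviations of same-numbered arrays correlated at −0.04 and −0.02. The deviations of the 2 REL arrays mirror each other, so these values rest on 1 REL contrast and cannot decide whether the numbers are pairs. Directions turned with quantile normalization for Mcm4 (0.047), Uhrf1 (0.077) and Slbp (0.052). They turned with median centring for Mcm2 (0.12), Mcm4 (0.12), Gins1 (5.1e-05), Pcna (0.0032), Rfc2 (0.086), Rfc3 (0.084), Uhrf1 (0.13) and Slbp (0.13), as centring adds 0.17 to every gene. They turned with the mean of the probe sets for Mcm2 (0.014), Mcm4 (0.084), Rfc3 (0.19), Ccne1 (−0.18), Uhrf1 (0.081) and Slbp (0.064). Leaving out 1 array gave ranges across 0 for Orc1 (−0.45 to 0.010), Orc6 (−0.41 to 0.047), Cdt1 (−0.047 to 0.22), Mcm2 (−0.12 to 0.090), Mcm4 (−0.14 to 0.0068), Mcm7 (−0.54 to 0.031), Gins1 (−0.56 to 0.22), Pola1 (−0.74 to 0.021), Pcna (−0.42 to 0.083), Rfc2 (−0.23 to 0.067), Rfc3 (−0.17 to 0.057), Ccne1 (−0.19 to 0.85), E2f1 (−0.073 to 0.36), E2f2 (−0.050 to 0.48), Uhrf1 (−0.12 to 0.045) and Slbp (−0.12 to 0.046). With 1 REL array left, that array was assumed to vary like the WT arrays. The cause of these turns, other than the shift of centring, was not tested.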
